A study of Mus musculus with 24 samples.

Results

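The Period genes Per1, Per2 and Per3 were followed in mouse liver over 1 day. They were taken as every probe set annotated to only 1 gene symbol, that symbol being Per1, Per2 or Per3. This gave 3 of 23102 genes and 65 of 233753 such probe sets, with 23 for Per1, 18 for Per2 and 24 for Per3. Probe sets were averaged to 1 value per gene, and each was also followed on its own. In mm10 coordinates Per1 lies on chr11:69095108-69109965, Per2 on chr1:91415977-91459351 and Per3 on chr4:150997018-151044707, and all are protein-coding genes. The samples were livers of male mice, 13 weeks of age, of the strain that the labels spell C56bl/6J, with chow available at all times and with no other treatment or genotype named. There were 8 groups, 1 for each zeitgeber time from ZT0 to ZT21 in steps of 3 h, with 3 arrays each and 24 arrays in all. Zeitgeber time counts hours from lights on at ZT0, and the hour of lights off is not given in the sources used here. The labels number the arrays of each time 1 to 3 without saying that they came from separate animals, so the p-values cover only the scatter among these arrays, part of which may be technical.

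Period proteins are the negative arm of the circadian clock. The activators CLOCK and BMAL1 (gene Arntl) bind E-boxes and switch on the Period and Cryptochrome genes, and the PER and CRY proteins then enter the nucleus and repress those activators until they are phosphorylated by casein kinase 1 and degraded. In liver the Period genes also take up signals from outside the cell's own clock, such as glucocorticoids, cyclic AMP through CREB, and temperature through heat-shock factor 1. Per1 and Per2 are needed for rhythmic behaviour in mice, whereas the loss of Per3 has a milder effect.

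The 250 bases before a transcript start are printed here for Per1 and Per3, because clock factors are known to act through short elements near Period starts. The letters are from RefSeq, GRCm38.p6, in which Per1 and Per3 were matched by symbol, and Per2 was not analysed here. Capitals mark the elements found in a search of both strands for CACGTG (E-box), CACGTT (an E-box variant), TTATGTAA (D-box), TTACGTAA and TTATGCAA (D-box variants), TGACGTCA (CRE) and TGACGT (CRE core). The CRE core lies within the full CRE, so the searches for these overlap. For Per3 the window is chr4:151044666-151044915 on the minus strand, and for Per1 the windows of 2 transcript starts are chr11:69098699-69098948 and chr11:69099902-69100151 on the plus strand.
Per3: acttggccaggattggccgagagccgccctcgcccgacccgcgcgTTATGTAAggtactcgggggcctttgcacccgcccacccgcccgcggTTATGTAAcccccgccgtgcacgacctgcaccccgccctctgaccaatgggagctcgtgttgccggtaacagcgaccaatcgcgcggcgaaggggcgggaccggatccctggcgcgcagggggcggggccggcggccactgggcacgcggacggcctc
Per1, upstream start: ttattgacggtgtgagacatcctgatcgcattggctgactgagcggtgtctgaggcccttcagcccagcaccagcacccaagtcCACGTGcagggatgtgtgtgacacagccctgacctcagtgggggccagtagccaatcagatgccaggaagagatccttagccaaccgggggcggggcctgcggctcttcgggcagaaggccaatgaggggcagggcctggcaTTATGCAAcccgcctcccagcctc
Per1, downstream start: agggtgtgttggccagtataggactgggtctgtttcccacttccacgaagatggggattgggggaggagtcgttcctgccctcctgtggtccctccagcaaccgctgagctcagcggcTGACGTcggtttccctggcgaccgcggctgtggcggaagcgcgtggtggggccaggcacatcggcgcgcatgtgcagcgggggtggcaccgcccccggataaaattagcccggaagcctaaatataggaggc

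The Per3 window held the D-box TTATGTAA at 2 places, 205 to 198 and 158 to 151 bases before the start. Of 32851 windows of the same length in the same table, 0.819% held this D-box. The upstream Per1 window held the E-box CACGTG at 166 to 161 bases and the D-box variant TTATGCAA at 24 to 17 bases before the start, against 6.02% and 0.694% of all windows. The downstream Per1 window held the CRE core TGACGT at 132 to 127 bases before the start, which 6.47% of all windows held. The full CRE was in 1.55%, CACGTT in 3.85% and TTACGTAA in 0.113% of all windows, and these 3 had no match in the Per1 and Per3 windows. A match is a description of these letters, and binding was not measured.

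Some facts of the whole series bear on the values that follow. The array medians lay between 6.44 and 6.51 on the log2 scale, and hepatocyte marker genes were bright on every array, with Alb, the gene of serum albumin, between 19.24 and 19.46. The array ZT0 replicate 1 stood apart. Its mean correlation with the other arrays over genes was 0.968, against 0.980 to 0.985 for the other 23 arrays. On it all 4 neutrophil markers and all 6 Kupffer cell markers had their highest values of the 24 arrays, with a mean over the neutrophil markers of 10.92 against 3.98 to 5.17 elsewhere, and over the Kupffer markers of 12.32 against 7.78 to 9.85. The mean of the 9 hepatocyte markers was 17.32 there and 17.26 to 17.49 elsewhere. Fewer cells of a type and less RNA per cell cannot be told apart in such bulk samples. Of the clock genes, Dbp was at 10.43 on this array against 6.54 and 5.96 on the other ZT0 arrays, and Arntl at 9.35 against 11.35 and 12.14. The part of these differences in the Period values was not tested, and where leaving the array out changed a call or moved a value, the value without it is given beside the result.

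All 3 Period genes had a 24-h rhythm, with fitted changes of close to 10-fold between trough and peak, and Per2 peaked later than both of the others. The rhythm was tested by limma with a moderated F over 24-h cosine and sine terms, and a gene was called at a Benjamini-Hochberg adjusted p under 0.05 over all genes, which 6.89% of the 23102 genes were. The range is the fitted difference between peak and trough and the acrophase the fitted hour of the peak, both with standard errors (SE) over 24 arrays. For Per1, which is known to respond quickly to light and hormones, the fitted range was 3.27 ± 0.43 on the log2 scale, or 9.66-fold, and its acrophase was 10.18 ± 0.51 h (adjusted p = 8.01e-05). For Per2, the core repressor whose protein stability is known to set the clock's period, the range was 3.45 ± 0.29, or 10.9-fold, and the acrophase 12.05 ± 0.32 h (adjusted p = 7.33e-07). For Per3, the fitted range was 3.37 ± 0.50, or 10.3-fold, and the peak was fitted at 9.49 ± 0.57 h (adjusted p = 0.000301). The Per3 trough was not above the gene background of 6.17 (the 95th percentile of olfactory receptor genes), with a mean of 5.89 at ZT21, so its fitted fold can understate the change. Among the 23102 genes, Per2 ranked 1 by p and 32 by range, Per1 ranked 94 and 36, and Per3 ranked 178 and 33.

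**Figure D1:**
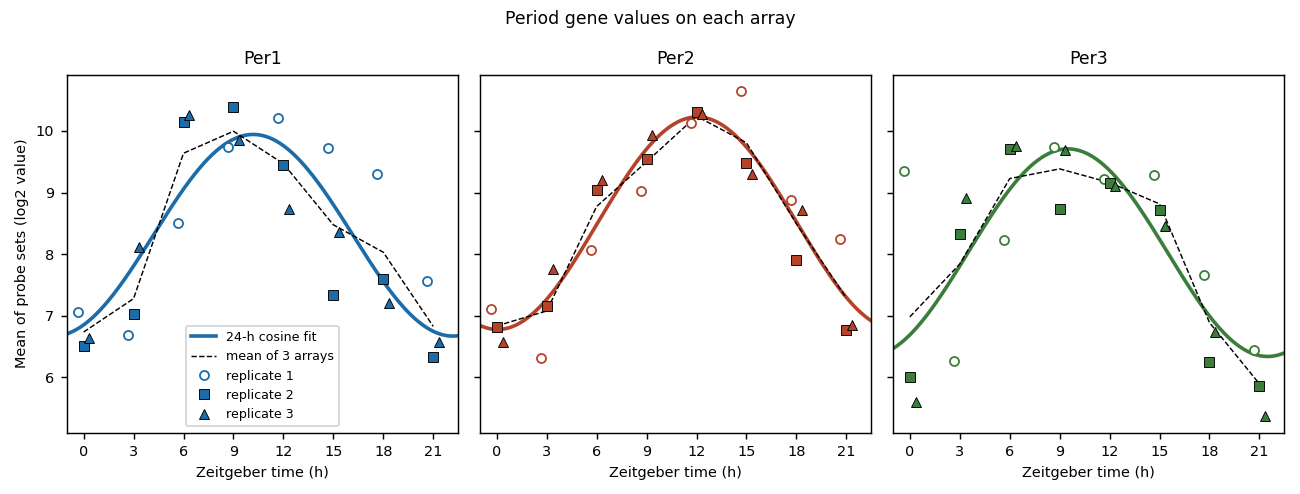
Value of Per1, Per2 and Per3 (log2, mean of the gene's probe sets, y axis) on each of the 24 arrays against zeitgeber time in hours (x axis). Symbols mark the replicate number and are set slightly apart in time, the dashed line joins the means of 3 arrays and the solid line is the fitted 24-h cosine. Per2 has its highest mean, 10.24, at ZT12, and the open circle of Per3 at ZT0 (9.34) lies far above the other ZT0 arrays.

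Per1 was lowest at the turn of the day and highest in the middle of it. Its values on replicates 1, 2 and 3 were 7.07, 6.51 and 6.63 at ZT0, 6.69, 7.03 and 8.11 at ZT3, 8.50, 10.15 and 10.26 at ZT6, and 9.74, 10.39 and 9.85 at ZT9. They were 10.21, 9.45 and 8.74 at ZT12, 9.73, 7.34 and 8.36 at ZT15, 9.30, 7.59 and 7.20 at ZT18, and 7.57, 6.34 and 6.58 at ZT21. All arrays of ZT6, ZT9 and ZT12 lay above all arrays of ZT0, ZT3 and ZT21, while the arrays of ZT15 and ZT18 were scattered, with replicate 1 far above the others. The order of the means, from the highest, was ZT9 at 9.99 ± 0.34 (SD, n = 3), ZT6 at 9.64 ± 0.99, ZT12 at 9.47 ± 0.74, ZT15 at 8.48 ± 1.20, ZT18 at 8.03 ± 1.12, ZT3 at 7.28 ± 0.74, ZT21 at 6.83 ± 0.65 and ZT0 at 6.74 ± 0.29. Each of the 7 pairs of neighbours in this order overlapped, and 13 of all 28 pairs of time points did not. Here and below such pairs were counted for the Period genes only, so no share over all genes stands beside them.

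The Per2 profile was the most regular of the family. On replicates 1, 2 and 3 it stood at 7.12, 6.81 and 6.58 at ZT0, 6.32, 7.15 and 7.76 at ZT3, 8.07, 9.04 and 9.21 at ZT6, and 9.02, 9.55 and 9.93 at ZT9. The later values were 10.13, 10.31 and 10.28 at ZT12, 10.65, 9.47 and 9.30 at ZT15, 8.87, 7.90 and 8.71 at ZT18, and 8.25, 6.77 and 6.84 at ZT21. All ZT12 arrays lay above every array of ZT0, ZT3, ZT6, ZT9, ZT18 and ZT21, and only ZT15 replicate 1 was higher than they were. The means ran from ZT12 at 10.24 ± 0.10 (SD, n = 3) through ZT15 at 9.81 ± 0.73, ZT9 at 9.50 ± 0.46, ZT6 at 8.77 ± 0.61, ZT18 at 8.49 ± 0.52, ZT21 at 7.29 ± 0.83 and ZT3 at 7.08 ± 0.73 to ZT0 at 6.84 ± 0.27. Neighbours in this order again overlapped in 7 of 7 pairs, and 19 of the 28 pairs of time points did not overlap.

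Per3 had a flat top from ZT6 to ZT15 and a wide scatter at ZT0 and ZT3. On replicates 1, 2 and 3 its values were 9.34, 6.01 and 5.60 at ZT0, 6.27, 8.33 and 8.92 at ZT3, 8.23, 9.70 and 9.75 at ZT6, and 9.73, 8.74 and 9.68 at ZT9. From ZT12 on they were 9.22, 9.16 and 9.11 at ZT12, 9.28, 8.71 and 8.46 at ZT15, 7.67, 6.25 and 6.74 at ZT18, and 6.45, 5.87 and 5.37 at ZT21. ZT0 replicate 1, the array that stood apart, was as high as the arrays of the peak, and ZT3 replicate 1 was as low as those of the trough. In order the means were ZT9 at 9.38 ± 0.56 (SD, n = 3), ZT6 at 9.23 ± 0.87, ZT12 at 9.16 ± 0.05, ZT15 at 8.82 ± 0.42, ZT3 at 7.84 ± 1.39, ZT0 at 6.98 ± 2.06, ZT18 at 6.89 ± 0.72 and ZT21 at 5.89 ± 0.54. Of the 28 pairs of time points 9 did not overlap, and all 7 pairs of neighbours in the order did. With ZT0 replicate 1 left out, 15 of the 28 pairs of Per3 did not overlap, against 14 for Per1 and 19 for Per2. Leaving out an array can only keep or raise such a count. The fitted range of Per3 on those 23 arrays was 3.78 with its acrophase at 9.80 h (adjusted p = 6.07e-06).

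A test of any difference between the 8 time points, which assumes no cosine, called all 3 genes, against 2.00% of all genes. The adjusted p of limma's F test was 0.00782 for Per1, 0.000574 for Per2 and 0.0334 for Per3. For Per3 the call was lost when any of 12 single arrays was left out, with adjusted p from 0.0531 to 0.0868: both of ZT6 replicates 2 and 3, ZT9 replicates 1 and 3, all of ZT12, ZT15 replicate 1, and replicates 2 and 3 of both ZT18 and ZT21. Without ZT0 replicate 1 it was 0.00137. The Per3 call was also lost with a replicate block (adjusted p = 0.0584), a robust variance prior (0.0620), the median of the probe sets (0.0850) or the brightest probe set (0.636), and in a Kruskal-Wallis permutation test (0.257). The Per1 call was lost with the brightest probe set (0.149) and in the Kruskal-Wallis permutation test (0.0512), and that of Per2 was kept in each of these. A 12-h component added to the cosine was called for none of the Period genes (adjusted p = 0.839 for Per1, 0.994 for Per2 and 0.907 for Per3) and for 0.00% of all genes by limma, while 1409 genes had an unadjusted p under 0.05.

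Opposite hours of the day gave different patterns for the 3 genes. Between ZT0 and ZT12 Per2 rose by 3.40 ± 0.43 (log2 difference of means ± SE, limma, adjusted p = 0.000589) and Per1 by 2.73 ± 0.60 (adjusted p = 0.0308), and 0.835% of all genes were called as higher at ZT12. The difference of Per3, 2.18 ± 0.74, did not pass (adjusted p = 0.146). Without ZT0 replicate 1 it was 3.36 and passed (adjusted p = 0.0169), while Per1, at 2.90, then did not (adjusted p = 0.0583). The Per1 call was also lost without ZT0 replicate 3 (0.0684), ZT12 replicate 1 (0.146) or ZT12 replicate 2 (0.0835).

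From ZT3 to ZT15 only Per2 of the family was called, with a rise of 2.73 ± 0.43 (adjusted p = 0.00949), and 0.0736% of all genes were called as higher at ZT15. Whether Per2 differed from the others in this contrast was not tested. Per1 was at 1.20 ± 0.60 (adjusted p = 0.501) and Per3 at 0.98 ± 0.74 (adjusted p = 0.708). The Per2 call was lost without ZT3 replicate 2 (adjusted p = 0.0733) or ZT15 replicate 1 (0.0952).

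From ZT6 to ZT18 no Period gene was called, against 0.558% of all genes in either direction. Per2 differed by only -0.28 ± 0.43 between these hours, which lie to either side of its peak (adjusted p = 0.878), and Per1 by -1.61 ± 0.60 (adjusted p = 0.307). Per3 differed by -2.34 ± 0.74 (adjusted p = 0.195), and this passed without ZT0 replicate 1, at an unaltered difference of -2.34 (adjusted p = 0.0459), since the spread is estimated over all arrays.

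From ZT9 to ZT21 all 3 genes fell, with differences of -3.17 ± 0.60 for Per1 (adjusted p = 0.00869), -2.21 ± 0.43 for Per2 (adjusted p = 0.0111) and -3.49 ± 0.74 for Per3 (adjusted p = 0.0188), and 0.528% of all genes were called as lower at ZT21. Single arrays moved these adjusted p across 0.05, while the differences moved little, to between -3.54 and -2.92 for Per1, -2.69 and -1.95 for Per2 and -3.81 and -3.23 for Per3 over all 24 fits without 1 array. Without ZT9 replicate 2, the adjusted p was 0.0579 for Per1 and 0.0519 for Per2. Without ZT21 replicate 2 it was 0.0584, 0.0794 and 0.0771 for Per1, Per2 and Per3, and without ZT21 replicate 3 it was 0.0510, 0.0754 and 0.103. Leaving out ZT9 replicate 3 gave 0.0737 for Per2 and 0.0875 for Per3, and leaving out ZT9 replicate 1 gave 0.0615 for Per3.

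Between neighbouring time points, 3 h apart, no Period gene passed. The 8 steps called 0.00% of all genes at ZT3 minus ZT0, and 0.00% at each of the other steps around the day, with 895 to 2322 genes at an unadjusted p under 0.05 in limma. The largest differences of Per1 and Per2 were from ZT3 to ZT6, 2.36 ± 0.60 for Per1 and 1.69 ± 0.43 for Per2 (adjusted p = 0.508 for both), and Per3 was 1.39 ± 0.74 in that step (adjusted p = 0.699). From ZT15 to ZT18 the difference was -1.93 ± 0.74 for Per3 (adjusted p = 0.739), -1.31 ± 0.43 for Per2 (adjusted p = 0.666) and -0.45 ± 0.60 for Per1 (adjusted p = 0.964). Per1 and Per2 had opposite signs from ZT9 to ZT12, at -0.53 ± 0.60 and 0.74 ± 0.43 (adjusted p = 0.996 for both), where the mean of Per2 reached its highest value.

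**Figure D2:**
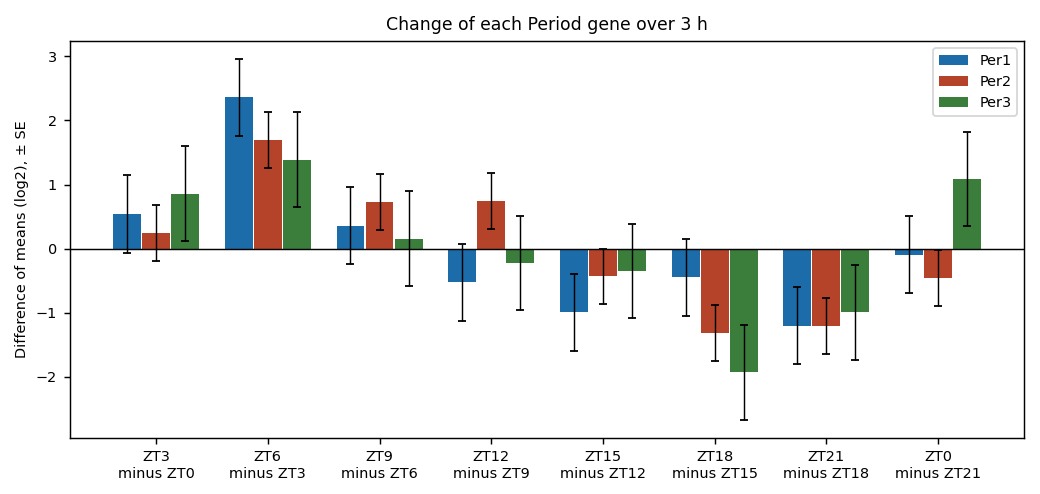
Difference of the mean log2 value between each time point and the one 3 h before (y axis, bars, with SE) for Per1, Per2 and Per3 over the 8 steps around the day (x axis). The tallest bar is the step of Per1 from ZT3 to ZT6, 2.36, and the deepest is that of Per3 from ZT15 to ZT18, -1.93, and none of the steps passed the test.

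The hour of the peak separated Per2 from the other members. The difference of 2 genes on the same array was fitted with 24-h terms and tested by permuting the time labels over the arrays (100000 permutations, Benjamini-Hochberg over the 3 pairs). This test asks whether 2 rhythms differ in size or hour, and only the intervals given for the hours concern the hour alone. Per2 peaked 1.87 ± 0.45 h after Per1, with a 95% interval from 0.94 to 2.80 h, and the 2 rhythms differed (adjusted permutation p = 0.00107). It peaked 2.56 ± 0.54 h after Per3, with an interval from 1.43 to 3.69 h, and these rhythms also differed (adjusted permutation p = 0.00039). Between Per1 and Per3 the difference was 0.69 ± 0.65 h, with an interval from -0.67 to 2.05 h, and the test did not pass (permutation p = 0.576). The ranges differed by 0.18 ± 0.38 for Per2 minus Per1, 0.08 ± 0.48 for Per2 minus Per3 and -0.10 ± 0.57 for Per1 minus Per3, with intervals from -0.62 to 0.98, -0.92 to 1.08 and -1.28 to 1.09. The later peak of Per2 was present on the arrays of each replicate number, by 1.00, 1.95 and 2.38 h after Per1 and by 2.44, 2.14 and 2.19 h after Per3 on replicates 1, 2 and 3. Per1 minus Per3 was 1.44, 0.19 and -0.20 h on these. When ZT0 replicate 1 was left out, Per2 peaked 1.84 h after Per1 and 2.25 h after Per3, and Per1 0.40 h after Per3.

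The clock hour itself differed between the replicate numbers. On the 8 arrays of replicate 1, Per1 peaked at 12.78 h, Per2 at 13.78 h and Per3 at 11.34 h. On replicate 2 the hours were 9.28, 11.22 and 9.09 h, and on replicate 3 they were 8.76, 11.14 and 8.96 h, all of them fits to 8 arrays with 1 array per time. The fitted ranges on replicates 1, 2 and 3 were 3.49, 3.98 and 3.47 for Per1, 3.70, 3.63 and 3.57 for Per2, and 2.19, 3.77 and 4.46 for Per3. At all 8 times and for each Period gene the replicate 1 array was the highest or the lowest of the 3, never the middle one. It was the lowest for all 3 genes at ZT3 and ZT6, on the rising side, and the highest for all 3 at ZT15, ZT18 and ZT21, on the falling side, and also at ZT0. Whether the labels' replicate 1 marks a common litter, day or handling is not given in the sources used here, and a test of this pattern was not run since it was seen in these same values.

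On the 16 arrays of replicates 2 and 3 alone, the peaks of Per1, Per2 and Per3 lay at 9.04, 11.18 and 9.02 h with fitted ranges of 3.72, 3.60 and 4.12 (adjusted p = 4.45e-05, 9.94e-08 and 3.95e-05). The subset, chosen after seeing the data, leaves out arrays seen to lie at the ends of each time point. A smaller scatter of the Period genes was thus built in. The calls that follow are descriptions, and no share over all genes is given for these contrasts. In this subset the ZT3 to ZT6 step passed for Per1, at 2.63 (adjusted p = 0.0315), and for Per2, at 1.67 (adjusted p = 0.0477). The ZT0 to ZT3 step passed for Per3, at 2.82 (adjusted p = 0.00568). Contrasts that did not pass on all 24 arrays also passed on these 16, with ZT12 minus ZT0 of Per3 at 3.33 (adjusted p = 0.00121) and ZT18 minus ZT6 at -3.23 for Per3 (adjusted p = 0.000471) and -2.81 for Per1 (adjusted p = 0.00401).

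**Figure D3:**
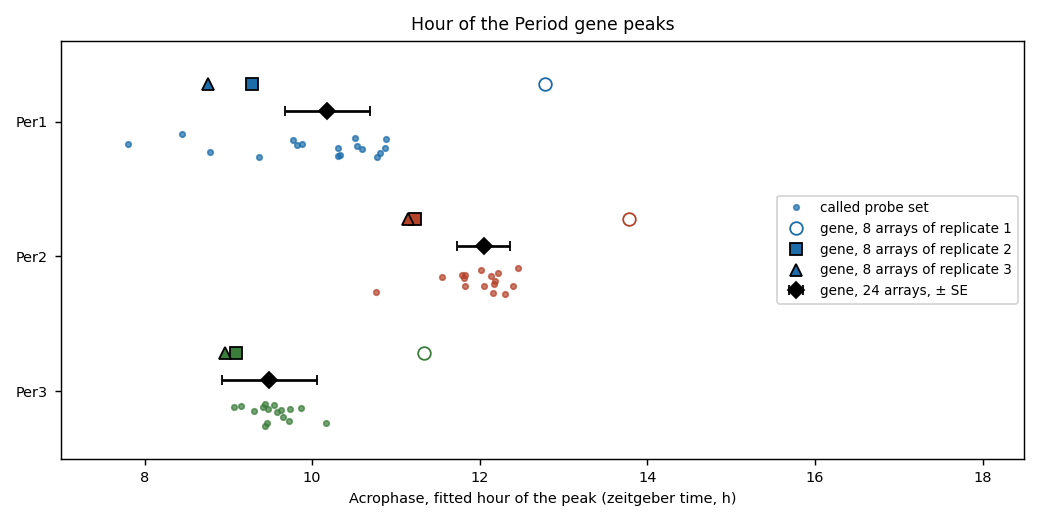
Fitted hour of the peak (x axis, zeitgeber time in hours) of Per1, Per2 and Per3 (rows): diamonds are the gene over 24 arrays with SE, larger symbols above them the gene on the 8 arrays of each replicate number, and dots below them the called probe sets, moved apart vertically at random. The replicate 1 fits (open circles, 12.78, 13.78 and 11.34 h) lie to the right of the other 2 in each row, and the diamond of Per2 (12.05 h) lies to the right of those of Per1 and Per3.

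Arrays of the same time point deviated together in the Period genes, and for the pairs with Per1 this was not seen on replicates 2 and 3 alone. After subtraction of the time-point means, Pearson's r over the 24 arrays was 0.71 for Per1 with Per2 (Spearman's rho 0.70), 0.52 for Per1 with Per3 (rho 0.62) and 0.64 for Per2 with Per3 (rho 0.76). Permuting arrays within time points, over the 3 pairs, gave adjusted p of 0.0034, 0.00309 and 0.00168 for r and 0.00376, 0.00338 and 0.0024 for rho. Without the 2 arrays farthest from the median of the first gene, r was 0.66, 0.49 and 0.59, and without ZT0 replicate 1 it was 0.71, 0.62 and 0.77. On the 16 arrays of replicates 2 and 3, a set chosen after seeing the data, r was -0.0048 for Per1 with Per2 (adjusted permutation p = 0.992), -0.18 for Per1 with Per3 (0.936) and 0.77 for Per2 with Per3 (unadjusted permutation p = 0.0393, adjusted 0.118). The positive relation of Per1 with the other members was thus not seen on these 16 arrays. With 2 arrays per time point the deviations mirror each other, so these r rest on few independent values. They cannot show that a relation is absent. Both genes of a pair were read from the same RNA on the same array.

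**Figure D4:**
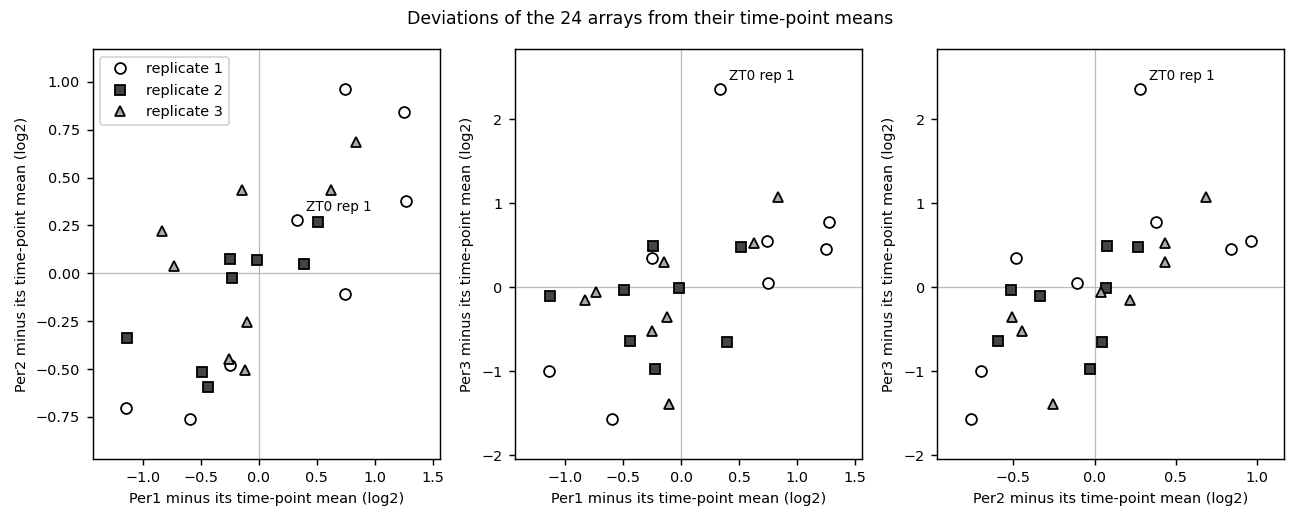
Deviation of each of the 24 arrays from the mean of its time point (log2) in one Period gene against another (both axes), with symbols for the replicate number. Open circles (replicate 1) lie at both ends of the clouds, and ZT0 replicate 1 is the highest point of Per3.

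Most probe sets of each Period gene carried the rhythm. With each probe set tested on its own by limma and adjusted over all 233753, 17 of 23 were called for Per1, 16 of 18 for Per2 and 16 of 24 for Per3, against 1.83% of all probe sets. Without ZT0 replicate 1 the counts were 15, 16 and 18. On replicates 2 and 3 alone they were 11, 14 and 17, and the count over all probe sets was 1868 against 4282. Probe sets of 1 gene are read from the same RNA and are not replicates. Above the background level, 6.83 (the 95th percentile of olfactory receptor probe sets), were 16 probe sets of Per1, 17 of Per2 and 17 of Per3, and of these 13, 15 and 13 were called.

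The rhythm differed in size along each gene. The median fitted range over all probe sets was 3.13 for Per1, 3.42 for Per2 and 3.39 for Per3, and over the called ones, which the same test chose, 4.19, 3.53 and 4.53. The widest ranges were 6.25, 6.01 and 6.08, in probe sets whose lowest means were not above the probe set background of 6.83, so that these ranges can understate the change. Per1 probe set 17251534 had the widest range of that gene, with time-point means from 5.79 at ZT0 to 12.08 at ZT9. For Per2 it was probe set 17225529, whose means went from 6.07 at ZT0 to 11.95 at ZT12. For Per3 it was probe set 17433348, with means of 11.62 at ZT6 and 5.80 at ZT21. Its values at ZT0 were 11.66, 4.48 and 2.86 on replicates 1, 2 and 3, so that ZT0 replicate 1 alone was at the level of the peak.

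The high Per3 value of ZT0 replicate 1 was spread over the whole gene. At ZT0 this array was the highest of the 3 in 22 of 24 Per3 probe sets and in 15 of the 16 called ones, by a median of 4.11 over the next highest array among the called. For Per1 it was the highest in 11 of 23 probe sets, 9 of them among the 17 called, with a median of 0.29, and for Per2 in 8 of 18, all of them among the 16 called, with a median of 0.11.

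Some probe sets above background were not called, which does not by itself make them flat. The brightest probe set of Per3, 17433331, had a mean of 13.80 and a fitted range of 0.36 ± 0.49, and was not called. Its time-point means lay between 12.63 at ZT18 and 14.51 at ZT15, while the next brightest, 17433349, had a mean of 10.80 and was called, with means from 7.45 at ZT21 to 12.94 at ZT9. At ZT21, where the gene and 17433349 had their lowest means, 17433331 was at 14.10. When this probe set alone stood for the gene, Per3 had no called rhythm (adjusted p = 0.941). In Per1, 3 probe sets above background were not called: 17251547 (mean 11.21, range 1.13 ± 0.69), 17251553 (mean 10.06, range 1.07 ± 0.34) and 17251554 (mean 9.26, range 1.21 ± 0.38). In Per2 these were 17225521 (range 1.78 ± 0.54), whose highest mean was at ZT12, and 17225530 (range 0.41 ± 0.23).

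**Figure D5:**
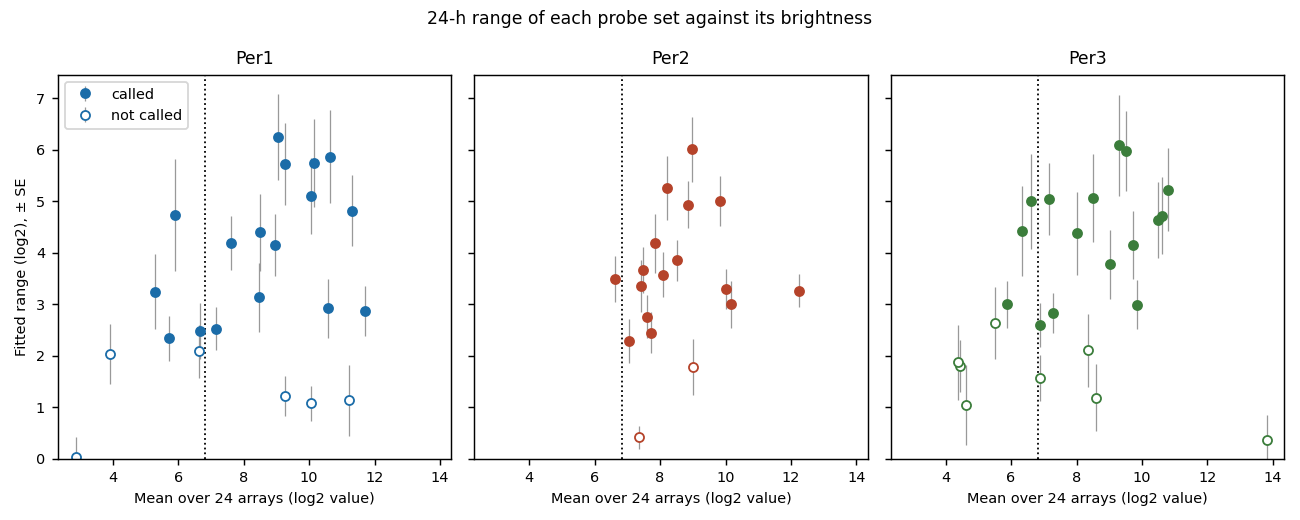
Fitted 24-h range of each probe set (log2, y axis, with SE) against its mean over 24 arrays (log2, x axis) for Per1, Per2 and Per3. Filled points were called (17 of 23, 16 of 18 and 16 of 24), open points were not, and the dotted line marks the background level of 6.83. The open point at the far right is the brightest Per3 probe set, with a mean of 13.80 and a range of 0.36.

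Over all called probe sets the hours spread most in Per1, whose earliest and latest hours came from probe sets not above background. Acrophases lay between 7.81 and 10.89 h for Per1, with a median of 10.31 h, between 10.77 and 12.46 h for Per2, with a median of 12.09 h, and between 9.07 and 10.17 h for Per3, with a median of 9.51 h. The Per1 hours thus overlapped those of both other genes, and those of Per2 and Per3 did not overlap. Among the called probe sets above background, the hours lay between 9.37 and 10.87 h for Per1 and between 10.77 and 12.46 h for Per2. In this set Per1 did not spread the most. The highest time-point mean was at ZT12 for 16 of 18 Per2 probe sets. It was at ZT9 for 15 and at ZT6 for 6 of the 23 Per1 probe sets, and at ZT9 for 12, and at ZT6 and ZT12 for 5 each, of the 24 of Per3. Fitted on each replicate number, the peak was latest on replicate 1 in all 17 called probe sets of Per1, all 16 of Per2 and 13 of 16 of Per3. The median hours on replicates 1, 2 and 3 were 12.87, 9.41 and 8.87 h for Per1, 13.58, 11.24 and 11.33 h for Per2, and 10.96, 9.25 and 9.06 h for Per3.

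The genes whose profile was most like that of a Period gene were, by Pearson's r over the 24 arrays among 9530 named genes above background, different for the 3 members. The r values are descriptions, since all genes were read on the same arrays. Closest to Per1 were Klf13 (r = 0.946), a zinc-finger transcription factor, Usp2 (0.935), a deubiquitinase, Lpin1 (0.905), a phosphatidate phosphatase, Wee1 (0.901), a kinase that restrains mitotic entry, and Mtss1 (0.898), a membrane-bending protein. Their acrophases lay between 9.71 h (Mtss1) and 10.72 h (Usp2). Closest to Per2 were Homer2 (r = 0.946), a scaffold protein, Srm (0.918), spermidine synthase, Pdxk (0.906), pyridoxal kinase, Smarca2 (0.905), a chromatin-remodelling ATPase, and Nmrk1 (0.895), a nicotinamide riboside kinase, with acrophases from 11.43 h (Homer2) to 12.81 h (Pdxk). Closest to Per3 were Tef (r = 0.938), a transcription factor that binds D-boxes, Upp2 (0.893), a uridine phosphorylase, Por (0.892), the electron donor of cytochrome P450 enzymes, Wee1 (0.868) and Slc16a12 (0.861), a transporter. Wee1 was the only gene in 2 of these groups. Without ZT0 replicate 1, 4 of the 5 for Per1, 3 of the 5 for Per2 and 4 of the 5 for Per3 were again among the 5 closest, and the r of Tef with Per3 was 0.956 and that of Wee1 with Per3 0.922.

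Lists of genes around the Period proteins are given as context, by the number of members with a called 24-h rhythm and the median range, which over all 23102 genes was 0.252 on the log2 scale and over the 10273 genes above background was 0.326, with 13.9% called. Of 11 proteins that bind PER in complexes, 6 were called, with a median range of 1.12. Cry1 and Cry2, the partners that repress together with PER, had acrophases of 16.92 h and 10.14 h, so that Cry1 had a later fitted peak than every Period gene. Their targets Arntl, Clock and Npas2, the activators, peaked at 19.70, 20.80 and 21.43 h, and Ciart, a further repressor, at 8.91 h. Casein kinases Csnk1d and Csnk1e, which phosphorylate PER, were not called (range 0.21 ± 0.11, adjusted p = 0.481, and 0.02 ± 0.12, adjusted p = 0.996), nor were Nono, Timeless and Wdr5.

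Of 19 measured enzymes that modify PER proteins (2 more were not measured here), 3 were called, with a median range of 0.211. Usp2, which removes ubiquitin and is known to act on PER1, had a range of 4.59 ± 0.57 (24.1-fold, adjusted p = 3.29e-05). Cul1, the scaffold of the ubiquitin ligase that acts on PER, had a range of 0.65 ± 0.12 with its acrophase at 0.26 h (adjusted p = 0.00234), and the kinase Gsk3a one of 0.53 ± 0.13 with its acrophase at 7.34 h (adjusted p = 0.0229). The ligase's substrate receptors Btrc and Fbxw11 were not called (adjusted p = 0.577 and 0.593).

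Of 18 measured regulators of Period transcription, 10 were called, with a median range of 1.50. Arntl, Clock and Npas2 are in this list and among the PER partners, so both counts of called genes hold them. Csnk1d and Csnk1e are likewise among both the partners and the modifiers. Of the D-box activators, Dbp at 7.58 ± 0.45 h and Tef at 8.79 ± 0.44 h had earlier fitted peaks than every Period gene. Hlf, at 10.37 ± 0.94 h, was later in fitted hour than Per1 and Per3 and earlier than Per2. The order of these hours was not tested. The D-box repressor Nfil3 peaked at 19.28 h. The REV-ERB repressors Nr1d1 and Nr1d2 peaked at 4.82 and 7.30 h. Bhlhe41, a repressor at E-boxes, peaked at 6.97 h, but its mean of 5.67 was not above the gene background. Bhlhe40, in the same list and with a mean of 14.07, was not called (range 1.39 ± 0.52, adjusted p = 0.238). The genes that carry outside signals were not called: Creb1 (adjusted p = 0.355), Crtc2 (0.151), Crem (0.597), Sik1 (0.559), the glucocorticoid receptor Nr3c1 (0.957) and Hsf1 (0.698). Without ZT0 replicate 1 the count was 9 of 18, and it was 9 of 18 on replicates 2 and 3.

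Targets of the outside signals were counted beside these, without a test of the lists. Sik1 is among both the regulators and the CREB targets, and Fos among both the CREB targets and the immediate early genes. Of 10 glucocorticoid targets 5 were called, with a median range of 1.81. Of the called, Fkbp5 peaked at 11.39 h, Errfi1 at 10.61 h, Zbtb16 at 12.77 h, Tsc22d3 at 14.23 h and Cdkn1a at 18.80 h. The mean of Cdkn1a, 6.04, was not above the gene background. Of 10 heat-shock factor targets 4 were called, with a median range of 0.911 and acrophases from 11.94 h for Hspa1b, a chaperone, to 13.34 h for Chordc1, and Hsph1 and Hspa8 lay between them. The heat-shock count was 3 without ZT0 replicate 1 and 2 on replicates 2 and 3. Of 8 targets of CREB and its coactivators only Pck1, the gluconeogenic enzyme, was called, at 5.94 h, and none was on replicates 2 and 3. Of 11 immediate early genes 0 were called by limma, with a median range of 0.493, and Junb and Klf6 had an unadjusted p under 0.05 (0.0369 and 0.0202). The genes named in these lists, other than the PER partners, modifiers and regulators, were named after their values were seen.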

How the data were processed

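Liver RNA was measured on whole-transcript Affymetrix arrays from 300 ng of total RNA, per the labels' protocols. The authors deposited log2 values per probe set, and how they summarised and normalized the arrays is not given in the sources used here. The submitters' processing notes list limma, Affymetrix Power Tools 2.10.0 and mm10. Arrays have no read depth, and their number limits the precision.

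Of 269479 probe sets, 233753 had 1 gene symbol in the platform annotation, 5106 had several and 30620 none, and symbols were updated through RefSeq (GRCm38.p6). No Period probe set reached the table's highest value. Background was the 95th percentile of 1101 olfactory receptor genes, 6.17, and the same percentile of their probe sets. Tests used limma 3.58.1 in R 4.3.3 (lmFit, eBayes) on all 24 arrays and all genes, with Benjamini-Hochberg adjustment, called at 0.05. Pair and co-variation tests were two-sided permutation tests (NumPy 2.4.6). Scripts were tested on simulated data. The Period genes, the gene lists and the tests were chosen with earlier results of these data known. Named genes were the Period genes, members of the lists of PER partners, modifiers and regulators, and the 5 genes most like each Period gene; members of the lists of glucocorticoid, heat-shock, CREB and immediate early genes were named after their values were seen. Alternatives were other normalizations, filters, probe set summaries, variance priors, array weights, a replicate block, subsets of arrays and leaving out each array.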

Additional observations from a re-analysis of the deposited data

How the results depend on the processing

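The 24-h rhythm of Per1 and Per2 was called under every alternative that gave a test, with fitted ranges of 2.87 to 3.90 and 3.26 to 3.61. That of Per3 was called under all but the brightest probe set (0.357). On single replicate numbers, with no test, ranges were 3.70, 3.63 and 3.57 for Per2, 2.19 for Per3 on replicate 1 and 3.98 for Per1 on replicate 2. The Period results had 552 values under alternatives, of which 522 were counted as unchanged. For tested results this means the same side of the threshold, and the same direction where called. Ranges on single replicate numbers and counts of called probe sets have no such test and were judged by the size of their change. Many of the 552 are 3-h steps and 12-h components that were not called on all 24 arrays.

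With the brightest probe set the time effect had adjusted p = 0.149 for Per1 and 0.636 for Per3, ZT12 minus ZT0 of Per1 was 1.73, ZT15 minus ZT3 of Per2 was 2.29 and ZT21 minus ZT9 of Per3 reversed to 0.14, none of them called. Per1 minus Per3 then passed (fitted range of the difference 2.78, acrophase difference 4.87 h), and Per2 minus Per3 was 7.05 h. The brightest Per3 probe set had no called rhythm, and its fitted hour was 4.50 ± 5.19 h. These differences are thus not distances between 2 peaks, and the pair test asks about size or hour. With the median probe set Per3 had 0.0850 for the time effect and -3.50 (adjusted p = 0.0607) for ZT21 minus ZT9. The time effect of Per3 was 0.0620 with a robust prior and 0.257 by the Kruskal-Wallis permutation test, which gave 0.0512 for Per1. Array weights called Per3 at ZT12 minus ZT0 (2.75) and ZT18 minus ZT6 (-2.64). On replicates 2 and 3 these were 3.33 and -3.23, ZT18 minus ZT6 of Per1 was -2.81, 11 Per1 probe sets were called, and Per2 peaked 2.17 h after Per3. The co-variation on these arrays was r = -0.0048 for Per1 with Per2, -0.18 for Per1 with Per3 and 0.77 for Per2 with Per3, none of them called. The causes were not tested.

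Leaving out 1 array gave 2.36 to 3.10 for ZT12 minus ZT0 of Per1, 1.49 to 3.36 for Per3, 2.31 to 3.07 for ZT15 minus ZT3 of Per2, -2.84 to -2.02 for ZT18 minus ZT6 of Per3, and for ZT21 minus ZT9 -3.54 to -2.92 (Per1), -2.69 to -1.95 (Per2) and -3.81 to -3.23 (Per3). The adjusted p of the time effect of Per3 was 0.00137 to 0.0868, and Per2 peaked 2.25 to 2.75 h after Per3.

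The arrays were not treated as paired by replicate number: of 84 same-number pairs 5 had deviations correlated above 0.1, the median was -0.022, and 4 of 24 arrays correlated best with their own number. This check cannot see a shift in hour, which gives deviations of opposite sign on the rising and falling sides. With a replicate block the time effect of Per3 was not called (adjusted p = 0.0584). The block changed no other call of a Period gene, with adjusted p of the rhythm of 0.000140, 3.61e-06 and 0.000578 for Per1, Per2 and Per3.

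Over all genes, 1591 were called for the rhythm, against 910 with the median probe set, 762 with the brightest and 767 on replicates 2 and 3. For the time effect 463 were called, against 704 without dim genes, 222 with the median and 122 with the brightest probe set, 161 by Kruskal-Wallis, and 295 to 579 without 1 array (most changed without ZT9 replicate 3 or ZT18 replicate 3). Of all probe sets 4282 were called, against 6585 of the bright ones tested alone and 1868 on replicates 2 and 3. The 12-h component was called for 1 gene on replicates 2 and 3. With 3 arrays per time, single contrasts of the Period genes often changed call with 1 array, and the 24-h rhythms did not.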

Other observations

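A further 3 probe sets carry Per2 together with a second symbol, 9830107B12Rik, a gene that RefSeq places on chromosome 17 and not on chromosome 1 with Per2, and they were left out of the gene values. Their time-point means followed the hours of Per2 in part. Probe set 17225523 went from 7.83 ± 1.02 (SD, n = 3) at ZT0 to 11.43 ± 0.15 at ZT12 and 11.45 ± 1.26 at ZT15. Probe set 17225525 went from 5.06 ± 0.88 at ZT0 to 9.13 ± 0.46 at ZT9 and 9.11 ± 0.24 at ZT12. Probe set 17225524 had its highest mean, 8.99 ± 0.56, at ZT9, and an SD of 3.44 between arrays at ZT3.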
